A study of Mus musculus with 20 samples.

Results

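miR-223 and miR-142 (named miR-142a in mouse) are miRNAs of blood cells, and the 4 mature arms of their hairpins, miR-223-3p, miR-223-5p, miR-142a-5p and miR-142a-3p, are described here across 20 small RNA libraries made from cultures of mouse bone marrow. The arms were chosen by name, and their reads are all sequences (tags) of 18 to 26 nt that match the annotated hairpins without a mismatch, split by arm. They are 4 of the 1327 miRNA arms with reads, and all 4 were among the 383 arms that reached 5 CPM (reads of the arm per 1000000 reads on miRNA hairpins) in 2 libraries or more, the arms that were tested. The study crossed 2 cell types, 2 genotypes and 5 stimuli, with 1 library for each of the 20 combinations.

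Bone marrow was grown into dendritic cells with hybridoma supernatant holding GM-CSF, and into macrophages with one holding M-CSF. The mice were wild type (C57BL/6) or miR-155-/- (B6.Cg-Mir155tm1.1Rsky/J, labelled with the same C57BL/6 strain), and 8 to 12 weeks old. Cultures were left unstimulated (called immature for dendritic cells) or received LPS, the endotoxin of gram-negative bacteria, or one of 3 lipoproteins, oxLDL, eLDL or LDL. The protocol gives an overnight stimulus of 200 ng/ml LPS at day 8 to 9 for dendritic cells. For macrophages the dose and time, and for lipoproteins the doses, are not given in the labels. Whether 2 libraries came from separate mice or cultures is not stated, so p-values measure only the spread between these libraries, which may be technical. GM-CSF and M-CSF cultures hold mixtures of cells. In such bulk samples, fewer cells of a type and less RNA per cell cannot be told apart.

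miR-223 is known as a miRNA of granulocytes and monocytes. Its transcription is driven by myeloid factors such as PU.1 and C/EBP, and it restrains granulocyte production and activation. miR-142 is made in nearly all blood cell lineages from a long host transcript. Both arms of its hairpin are loaded into Argonaute in these cells, and mice without it have defects in dendritic cells, lymphocytes and platelets. A miRNA finds its targets mainly through its seed, bases 2 to 8 from the 5′ end, so a tag that starts 1 base earlier or later carries another seed, while changes at the 3′ end leave the seed as it is.

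The mature sequences below are those of RefSeq for GRCm38.p6, where all 4 arms were found, with the seed in capitals. They are shown because the 5′ starts reported further on are counted from their first base.
miR-223-3p: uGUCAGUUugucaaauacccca
miR-223-5p: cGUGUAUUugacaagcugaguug
miR-142a-5p: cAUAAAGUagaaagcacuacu
miR-142a-3p: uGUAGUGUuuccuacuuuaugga
No 2 of the 4 arms share a seed. The hairpins, with the annotated arms in capitals, show what lies on either side of each arm.
miR-223: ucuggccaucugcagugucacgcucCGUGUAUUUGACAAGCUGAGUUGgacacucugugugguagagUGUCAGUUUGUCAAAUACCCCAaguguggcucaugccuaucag
miR-142a: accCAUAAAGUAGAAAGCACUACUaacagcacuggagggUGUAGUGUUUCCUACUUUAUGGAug
The miR-223 hairpin lies on chromosome X at 96242817 to 96242926 on the plus strand (GRCm38), within an exon of F630028O10Rik, a non-coding gene annotated on the same strand at 96239926 to 96243636. The miR-142a hairpin lies on chromosome 11 at 87756864 to 87756927 on the plus strand, within the non-coding host gene Mir142hg (87755577 to 87757270) and outside its annotated exons. The minus strand there carries the annotated hairpin of miR-142b (87756841 to 87756955), for which 9 reads were found over all 20 libraries. No tag of the 4 arms also matched another arm.

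Libraries held 10.3 to 22.8 M reads, of which 5.14 to 11.8 M lay on miRNA hairpins, so 3 reads correspond to 0.254 to 0.584 CPM. miR-155-5p, the deleted miRNA, had 2 to 7 reads in knockout against 892 to 84451 in wild-type dendritic cells, and 33 to 45 in knockout against 38435 to 317688 in wild-type macrophages. In the 10 macrophage libraries position 20 of the tag was uncalled in 7.52% to 7.92% of the reads that reach it, and in the dendritic cell libraries in at most 9.27e-06%. Ignoring that position raised the hairpin reads by 13.1% to 13.6% in macrophages and by 0.464% to 0.535% in dendritic cells. The fault and the cell type cannot be told apart, so values between cell types were recomputed with that base ignored. Of the markers of other cell types, miR-451a, which defines red cells, lay at or below 6.18 CPM in every library, and miR-126a (endothelium and megakaryocytes, both arms summed) at or below 18.2 CPM. Other markers were higher. miR-486a-5p of the red cell list had 207 to 991 CPM and the lymphoid marker miR-342-3p 1810 to 3519 CPM. The stromal marker miR-143-3p had 0.635 to 267 CPM, and 7 epithelial markers summed to 162 to 280 CPM. The neuronal marker miR-9-5p had 4.28 to 18.7 CPM in dendritic cells and 5057 to 18365 CPM in macrophages.

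miR-142a-5p was the most abundant of the 4 arms. It ranked 14 among all arms in dendritic cells (mean 19099 CPM) and 9 in macrophages (mean 26226 CPM), which is 2.62% of macrophage miRNA reads. miR-223-3p followed at ranks 39 and 44 (means of 2694 and 1854 CPM). The other arm of each hairpin was scarcer. miR-142a-3p ranked 72 and 54 (606 and 1130 CPM) and miR-223-5p ranked 91 and 119 (301 and 140 CPM). By comparison, the leading arms were miR-21a-5p in dendritic cells with 25.7% of reads and miR-146b-5p in macrophages with 25.2%. Reads of different arms also depend on how well each ligates to the adapters, so these ranks are of reads and not of molecules. The ranks cover tags of 18 to 26 nt only. With tags of up to 30 nt, miR-223-5p had 217 to 1251 CPM in dendritic cells and 110 to 727 CPM in macrophages. miR-142a-3p then had 430 to 714 CPM and 859 to 1330 CPM, so the 2 arms overlapped in dendritic cells.

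miR-223-3p fell with LPS in all 4 cultures. With values given for no stimulus, then LPS, then oxLDL, eLDL and LDL, its level was 3575, 1354, 2661, 3365 and 3519 CPM in wild-type dendritic cells. Knockout dendritic cells had 3051, 1274, 2755, 2617 and 2769 CPM in that order. The LPS library was the lowest of the 5 in both genotypes, and the other 4 did not overlap with it. Wild-type macrophages had 2572, 1395, 2471, 2751 and 2048 CPM. In knockout macrophages the levels were 1911, 800.4, 1575, 1540 and 1472 CPM. Here too the LPS library was the lowest, and the plot of arm levels by stimulus shows the drop in each culture.

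**Figure D1:**
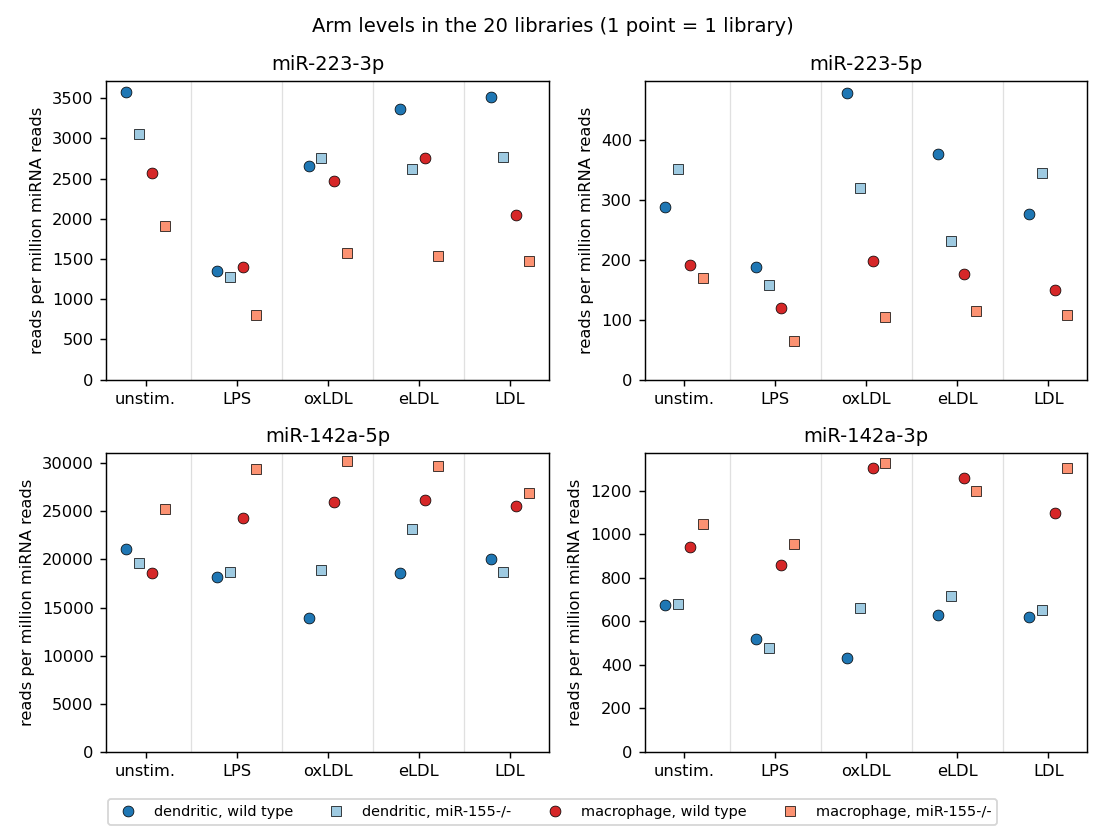
Level of each arm (y axis, CPM, from 0) by stimulus (x axis), 1 point per library, with blue for dendritic cells, red for macrophages, circles for wild type and paler squares for miR-155-/-. miR-223-3p is lowest with LPS in all 4 cultures (1354, 1274, 1395 and 800.4 CPM), and miR-142a-3p is higher in every macrophage library (859 to 1330 CPM) than in any dendritic cell library (430 to 715 CPM).

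In the fit over both genotypes, LPS lowered miR-223-3p by a log2 fold change of -0.88 ± 0.14 (SE) in dendritic cells (edgeR quasi-likelihood test, Benjamini-Hochberg adjusted p = 0.000224). Among the 4 arms it was the only one called there, where 24.3% of all arms tested were called (48 higher and 45 lower, or 26 and 126 with plain totals of miRNA reads). In macrophages the change was -1.09 ± 0.14 (edgeR, adjusted p = 4.37e-05), and miR-223-5p was called as well, with 19.3% of all arms called. These fold changes depend on the scaling only in size: with plain totals the median of all arms shifted from -0.03 to -0.46 for LPS in dendritic cells, and miR-223-3p fell in both cell types under each scaling tried. The LPS change in macrophages minus that in dendritic cells was -0.21 ± 0.20 (edgeR, adjusted p = 0.528), and with plain totals it was 0.26. In that comparison 11.7% of arms were called (23 higher and 22 lower, or 81 and 13 with plain totals), none of the 4 among them. The red cell marker sum, nearly all miR-486, was 753 to 889 CPM in unstimulated dendritic cells against 613 to 730 CPM after LPS, and 225 to 232 CPM against 263 to 362 CPM in macrophages, and its part in the LPS result was not tested.

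miR-223-5p, the other arm of the same hairpin, had 288, 188, 478, 377 and 277 CPM in wild-type dendritic cells in the same order. Knockout dendritic cells had 352, 157, 321, 232 and 344 CPM. With tags of 18 to 26 nt, the wild-type dendritic oxLDL library was the highest of all 20. With tags of up to 30 nt the wild-type dendritic eLDL library was the highest, at 1251 CPM against 1001 CPM with oxLDL. In macrophages the levels were 191, 120, 198, 177 and 149 CPM in wild type. Knockout macrophages had 170, 64.8, 104, 115 and 107 CPM. Its LPS libraries were the lowest of each culture. The test gave a log2 fold change of -1.05 ± 0.24 in macrophages (edgeR, adjusted p = 0.00518) and -0.45 ± 0.24 in dendritic cells (edgeR, adjusted p = 0.206), and the difference between the cell types was -0.61 ± 0.34 (edgeR, adjusted p = 0.293). The macrophage call was lost without the unstimulated knockout library (-0.72) or the LPS knockout library (-0.87), and without the filter on low counts (-1.09, edgeR, adjusted p = 0.0727). With plain totals the dendritic cell value was -0.91 (edgeR, adjusted p = 0.00788).

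Neither arm of miR-142a was called with LPS. miR-142a-5p had 21131, 18133, 13959, 18626 and 20007 CPM in wild-type dendritic cells, and the oxLDL library was the lowest of the 5. Knockout dendritic cells had 19603, 18675, 18917, 23195 and 18745 CPM. Wild-type macrophages had 18544, 24345, 25943, 26225 and 25571 CPM, and there the unstimulated library was the lowest. In knockout macrophages the levels were 25289, 29458, 30261, 29747 and 26874 CPM. The log2 fold change with LPS was 0.30 ± 0.15 in dendritic cells (edgeR, adjusted p = 0.186) and 0.29 ± 0.15 in macrophages (edgeR, adjusted p = 0.213). The dendritic cell value turned to -0.15 with plain totals and was 0.43 with base 20 ignored (edgeR, adjusted p = 0.0409).

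miR-142a-3p had 677, 519, 430, 631 and 621 CPM in wild-type dendritic cells and 680, 477, 660, 715 and 652 CPM in knockout ones. In wild-type macrophages it had 941, 859, 1305, 1258 and 1098 CPM. Knockout macrophages had 1047, 956, 1330, 1198 and 1306 CPM. The 2 cell types did not overlap for this arm. Its log2 fold change with LPS was 0.0078 ± 0.16 in dendritic cells (edgeR, adjusted p = 1) and -0.15 ± 0.16 in macrophages (edgeR, adjusted p = 0.554), and with plain totals the dendritic cell value was -0.44 (edgeR, adjusted p = 0.0324).

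The 2 hairpins differed between the cell types in opposite directions. Both arms of miR-223 were lower in macrophages than in dendritic cells, and both arms of miR-142a were higher. Over the 10 pairs of libraries of the same genotype and stimulus, miR-223-3p was lower in macrophages in 9 of 10 pairs by CPM, miR-223-5p in 10 of 10, and miR-142a-5p was higher in 9 of 10 and miR-142a-3p in 10 of 10. The log2 fold changes, macrophages over dendritic cells, were -0.51 ± 0.06 for miR-223-3p (edgeR, adjusted p = 7.88e-07) and -1.09 ± 0.11 for miR-223-5p (edgeR, adjusted p = 1.19e-07). For miR-142a-5p the change was 0.49 ± 0.07 (edgeR, adjusted p = 5.08e-06), and for miR-142a-3p 0.93 ± 0.07 (edgeR, adjusted p = 3.18e-09). All 4 arms were called, in a comparison in which 78.3% of all arms were (150 higher, 150 lower), so a call by itself sets none of them apart. With base 20 ignored all 4 kept their direction and call. With tags of up to 30 nt the value of miR-223-5p was -0.56 ± 0.20 (edgeR, adjusted p = 0.0260). The red cell marker sum, nearly all miR-486, was 613 to 992 CPM in dendritic cells and 208 to 362 CPM in macrophages. For miR-451a the values overlapped, at 0 to 6.18 CPM and 0.117 to 1.94 CPM. The part of these markers in the result was not tested.

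**Figure D2:**
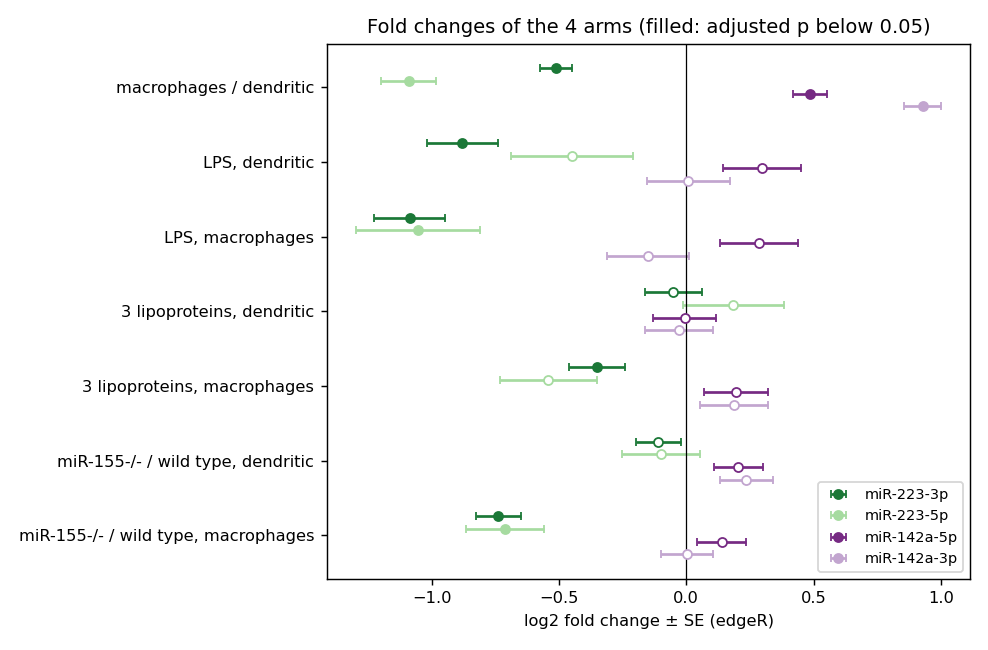
Log2 fold change of each arm (x axis, edgeR estimate with SE bars) in 7 comparisons (y axis), with filled points where the adjusted p was below 0.05. Both miR-223 arms lie left of 0 for macrophages over dendritic cells, for LPS, and for miR-155-/- over wild type in macrophages (-0.74 and -0.71), and the miR-142a arms lie right of 0 only for macrophages over dendritic cells among the called points.

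The knockout of miR-155 went with lower miR-223 in macrophages and not with a called change in dendritic cells. The 5 libraries of each culture differ by label only in stimulus. Genotype and culture preparation therefore cannot be told apart. In macrophages miR-223-3p was lower in the knockout under all 5 stimuli, by log2 ratios of CPM from -0.84 to -0.43. The fit gave -0.74 ± 0.09 (edgeR, adjusted p = 5.19e-06), and miR-223-5p gave -0.71 ± 0.15 (edgeR, adjusted p = 0.00242). The call of miR-223-5p was lost with tags of up to 30 nt (-0.75 ± 0.29, edgeR, adjusted p = 0.0940) and without the filter on low counts (-0.72 ± 0.19, edgeR, adjusted p = 0.0530). miR-142a-5p and miR-142a-3p were not called (0.14 ± 0.10 and 0.0039 ± 0.10, edgeR, adjusted p = 0.354 and 0.999). In this comparison 23.8% of all arms were called, 45 higher and 46 lower (65 and 41 with plain totals). In dendritic cells the fold change of miR-223-3p was -0.11 ± 0.09 (edgeR, adjusted p = 0.533), lower in 4 of 5 pairs, and that of miR-223-5p -0.10 ± 0.15 (edgeR, adjusted p = 0.793). For miR-142a-5p and miR-142a-3p it was 0.21 ± 0.10 and 0.24 ± 0.10 (edgeR, adjusted p = 0.244 and 0.206). None of the 4 arms was called there, beside 8.09% of all arms (19 higher and 12 lower, or 12 and 20 with plain totals).

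The genotype difference in macrophages minus that in dendritic cells was itself tested. It was -0.63 ± 0.12 for miR-223-3p (edgeR, adjusted p = 0.00185) and -0.61 ± 0.22 for miR-223-5p (edgeR, adjusted p = 0.0737). Of all arms 13.3% were called (17 higher and 34 lower, or 44 and 26 with plain totals). For miR-223-3p this call held under each of the 30 alternatives run, among them each library left out. For miR-142a-5p the value was -0.065 ± 0.14 and for miR-142a-3p -0.23 ± 0.15 (edgeR, adjusted p = 0.825 and 0.350). Other miRNAs moved with genotype in the same libraries. The summed CPM of 5 stromal markers was 26.1 to 282 in wild-type and 0.847 to 26.6 in knockout macrophages, and 68.5 to 282 against 21.9 to 85.3 in dendritic cells. Its member miR-143-3p had 42.6 to 150 CPM in wild-type and 1.84 to 5.70 CPM in knockout dendritic cells. In macrophages it had 24.4 to 267 CPM and 0.635 to 23.5 CPM. For miR-199a-3p the values overlapped, at 23.8 to 127 CPM and 19.4 to 76.9 CPM in dendritic cells. In macrophages they were 0.619 to 9.56 CPM and 0.212 to 2.22 CPM, which overlapped too. Of the scarcer defining members, miR-145a-5p was at 0 in all 5 knockout dendritic cell libraries and miR-214-3p in all 5 knockout macrophage libraries. Both were scarce in wild type too, at 0.113 to 4.67 CPM in dendritic cells and 0 to 0.831 CPM in macrophages, respectively. In the knockout of the other cell type they reached 0.831 CPM (miR-145a-5p, macrophages) and 1.22 CPM (miR-214-3p, dendritic cells). The neuronal list, nearly all of it miR-9-5p, summed to 5058 to 12936 CPM in wild-type and 13065 to 18365 CPM in knockout macrophages and stayed at or below 18.7 CPM in dendritic cells. Their part in the result was not tested. The lymphoid markers miR-150-5p and miR-342-3p summed to 1934 to 2680 CPM in wild-type and 3077 to 3526 CPM in knockout dendritic cells. These ranges did not overlap. In dendritic cells the sum was nearly all miR-342-3p, at 1926 to 2656 CPM in wild type and 3066 to 3519 CPM in the knockout. For miR-150-5p the values there overlapped, at 8.23 to 23.99 CPM in wild type and 6.15 to 16.63 CPM in the knockout. In macrophages the sums were 1953 to 2104 CPM in wild type and 2031 to 2168 CPM in the knockout, which overlapped. The 7 epithelial markers summed to 234 to 280 CPM in wild-type and 162 to 180 CPM in knockout dendritic cells, and to 207 to 273 CPM and 191 to 238 CPM in macrophages. Members of this list went both ways. In macrophages miR-200b-3p had 66.0 to 80.4 CPM in wild type and 33.2 to 42.2 CPM in the knockout. For miR-141-3p the values there were 29.4 to 50.7 CPM and 52.1 to 62.7 CPM. The part of these markers was not tested either.

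The LPS response of these arms did not differ between the genotypes by a called amount. In a fit with stimulus within genotype, the LPS change in the knockout minus that in wild type was -0.027 ± 0.21 for miR-223-3p and -0.54 ± 0.26 for miR-223-5p (edgeR, adjusted p = 0.987 and 0.762). It was 0.078 ± 0.22 for miR-142a-5p and 0.026 ± 0.24 for miR-142a-3p (edgeR, adjusted p = 0.987 for each). Called arms were 0% of the 383, and 24 had an unadjusted p under 0.05 in the edgeR test, while DESeq2 called 0.

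Lipoproteins went with a small decrease of miR-223-3p in macrophages that most alternatives did not keep as a call. Over the 3 lipoproteins together its log2 fold change was -0.35 ± 0.11 in macrophages (edgeR, adjusted p = 0.0455), with 12.5% of all arms called (20 higher and 28 lower, or 39 and 21 with plain totals), and -0.051 ± 0.11 in dendritic cells (edgeR, adjusted p = 0.942), with 0.261% of all arms called. The macrophage call was lost with plain totals (-0.21), without the filter on low counts (-0.29), with tags of 18 to 30 nt (-0.32) and when 1 of 15 of the 20 libraries was left out. Its value was -0.43 without the unstimulated wild-type macrophages and -0.16 without the unstimulated knockout library. In CPM the wild-type eLDL library (2751) lay above the unstimulated one (2572). By lipoprotein, the macrophage values of miR-223-3p were -0.34 ± 0.14 for oxLDL, -0.27 ± 0.14 for eLDL and -0.44 ± 0.14 for LDL, none of them called. The other 3 arms were not called with lipoproteins in either cell type. Their values in macrophages were -0.54 ± 0.19 for miR-223-5p, 0.20 ± 0.13 for miR-142a-5p and 0.19 ± 0.13 for miR-142a-3p, and in dendritic cells 0.19 ± 0.20, -0.0065 ± 0.12 and -0.028 ± 0.13.

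The tags of miR-223-3p had 1 5′ end and several 3′ ends. The RefSeq start held 96.3% to 97.8% of its reads, and 1.68% to 2.97% began 1 nt later. Its 5 leading tags, with the seed in capitals, share that start and differ by 1 base at a time at the 3′ end. They are shown because LPS moved their shares of the arm in different directions.
20 nt: tGTCAGTTtgtcaaataccc
19 nt: tGTCAGTTtgtcaaatacc
21 nt: tGTCAGTTtgtcaaatacccc
22 nt: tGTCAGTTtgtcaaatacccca
18 nt: tGTCAGTTtgtcaaatac
Their mean shares of the arm were 28.5%, 25.1%, 17.5%, 16.4% and 5.54%. The RefSeq mature form, the 22 nt tag, was thus only the fourth of them.

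With LPS the miR-223-3p tags were shorter in all 4 cultures. The 19 nt form rose from 16.6% of reads at the leading start to 42.7% in wild-type and from 19.5% to 39.4% in knockout dendritic cells. In macrophages it went from 20.5% to 33.5% in wild type and from 23.3% to 33.8% in the knockout. The 21 nt form went the other way, from 24.1% to 6.63% and from 23.9% to 5.31% in dendritic cells, and from 23.2% to 8.90% and from 21.7% to 10.2% in macrophages. The 12 lipoprotein libraries held 21.7% to 25.4% of the 19 nt form. The mean length at the leading start was 20.6, 20.5, 20.4 and 20.3 nt in the unstimulated libraries (wild-type and knockout dendritic cells, then wild-type and knockout macrophages) and 19.9, 19.9, 20.1 and 19.8 nt with LPS, a mean change of -0.53 nt (SD 0.18, 4 pairs). With 4 pairs an exact paired permutation test cannot give a p below 0.125, so no test was made of the lengths.

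**Figure D3:**
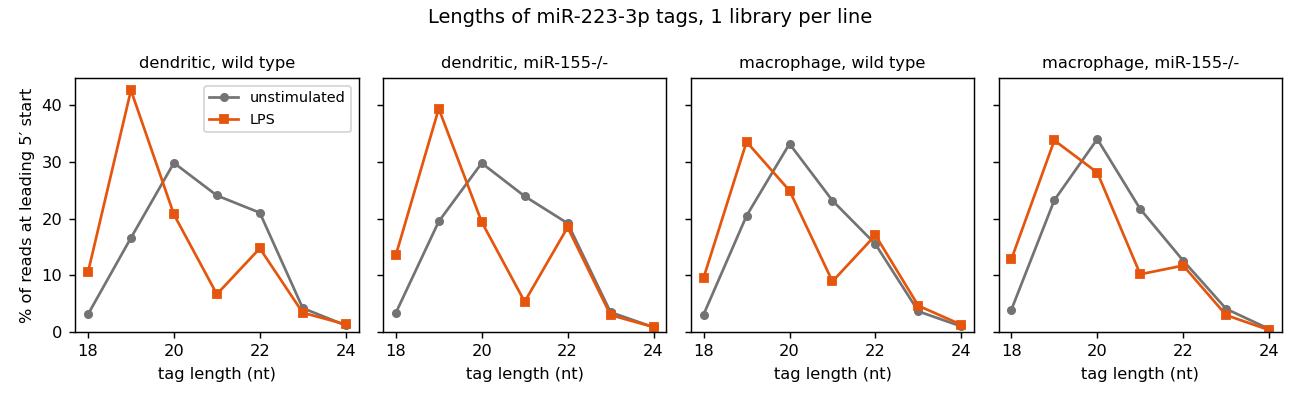
Share of miR-223-3p reads at the leading 5′ start (y axis, %) by tag length (x axis, nt) in the unstimulated and the LPS library of each of the 4 cultures, 1 library per line. With LPS the peak lies at 19 nt (33.5% to 42.7%) and the 21 nt form is at 5.31% to 10.2%, against 16.6% to 23.3% and 21.7% to 24.1% without.

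A fit with each exact tag as its own feature, added after the data were seen, gave lower abundance of the 20, 21 and 22 nt tags in both cell types. In dendritic cells the 21 nt tag fell by 2.90 ± 0.16 on the log2 scale, the 20 nt tag by 1.46 ± 0.14 and the 22 nt tag by 1.17 ± 0.23, while the 18 nt tag rose by 1.01 ± 0.22 (edgeR, adjusted p = 0.0035). The 19 nt tag had a log2 fold change of 0.30 ± 0.17 (edgeR, adjusted p = 0.218). In macrophages the 21 nt tag fell by 2.32 ± 0.16, the 20 nt tag by 1.43 ± 0.14 and the 22 nt tag by 1.04 ± 0.23, and the 19 nt and 18 nt tags were not called (-0.47 ± 0.17 and 0.58 ± 0.22). Of all 1722 tags tested, 27.4% were called for LPS in dendritic cells and 19.9% in macrophages. Shorter tags with LPS were not particular to miR-223-3p. Of the 91 arms with at least 1000 reads in every library, 61 were shorter in all 4 LPS pairs and 0 were longer in all 4, with a median change of -0.10 nt. The change of miR-223-3p was exceeded in size by 4 of these arms.

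miR-223-5p tags were longer than the annotated arm. Within 18 to 26 nt its leading tags began at the RefSeq start, except the third, which begins 6 nt later and has another seed. The forms are listed with their seeds in capitals, and the last one is the 29 nt form that the limit of 26 nt leaves out.
26 nt: cGTGTATTtgacaagctgagttggac
24 nt: cGTGTATTtgacaagctgagttgg
23 nt from +6: tTTGACAAgctgagttggacact
29 nt: cGTGTATTtgacaagctgagttggacact
The first 3 held on average 23.9%, 20.4% and 11.1% of the reads of the arm. The 23 nt tag from +6 and the 29 nt form end at the same base, 96242870 on chromosome X, 6 nt past the annotated end of the arm. The RefSeq start held 57.6% to 74.6% of reads, the start at +6 held 9.23% to 20.9% and the start at +4 held 6.25% to 13.0%. None of the shifted seeds at starts with at least 1% in a library occurs in another annotated mouse mature miRNA of the RefSeq table.

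When tags of up to 30 nt were counted, 27 to 30 nt tags made up most of miR-223-5p outside the LPS libraries. They were 58.1% to 81.3% of reads at the leading start in the 16 libraries without LPS and 19.9% to 53.4% in the 4 with LPS, and the 2 sets did not overlap. In wild-type dendritic cells the share was 62.7% unstimulated and 19.9% with LPS, and in knockout dendritic cells 60.7% and 39.0%. In macrophages it was 73.3% and 41.9% in wild type and 78.1% and 53.4% in the knockout. Counted this way the arm had 588 CPM unstimulated and 217 CPM with LPS in wild-type dendritic cells. Knockout dendritic cells had 745 and 222 CPM, wild-type macrophages 565 and 183 CPM, and knockout macrophages 592 and 110 CPM. The log2 fold change with LPS was then -2.07 in macrophages (edgeR, adjusted p = 0.0107) and -1.18 in dendritic cells (edgeR, adjusted p = 0.0905).

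**Figure D4:**
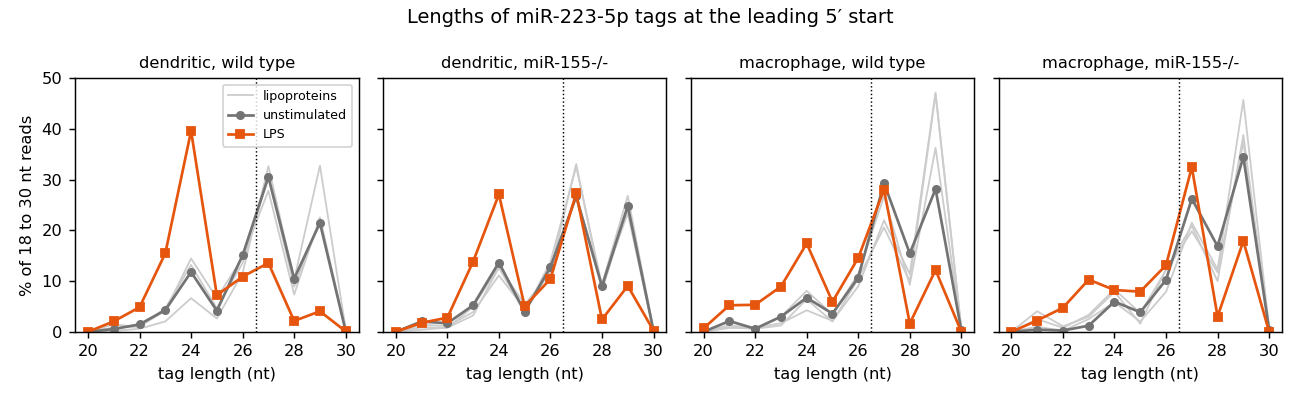
Share of miR-223-5p reads of 18 to 30 nt at the leading 5′ start (y axis, %) by tag length (x axis, nt) in each culture, with the unstimulated, LPS and 3 lipoprotein libraries as lines and a dotted line at the 26 nt limit of the main counts. Right of the dotted line lie 58.1% to 81.3% of reads without LPS and 19.9% to 53.4% with LPS.

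miR-142a-5p was made of 2 nearly equal sets of tags that differ at the 5′ end. Reads that begin 2 nt before the RefSeq start made up 39.7% to 54.5% of the arm and those at the RefSeq start 39.1% to 53.9%. The leading tags show how the shift moves the seed, in capitals.
start 0, 21 nt: cATAAAGTagaaagcactact
start -2, 20 nt: cCCATAAAgtagaaagcact
start -2, 22 nt: cCCATAAAgtagaaagcactac
start -2, 21 nt: cCCATAAAgtagaaagcacta
Their mean shares were 40.0%, 21.6%, 18.8% and 4.71%. The seed of the tags from -2 is also that of the annotated miR-142b of the opposite strand, and the seed of the RefSeq form is shared with no other mature miRNA in the table. Starts at -3, -1 and +1 held 1.18% to 1.83%, 1.16% to 1.88% and 2.11% to 4.02%.

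miR-142a-3p also had 2 main starts. The RefSeq start held 48.0% to 62.7% of reads and the start 3 nt later 25.6% to 40.2%, with 7.19% to 10.1% at +1 and 1.32% to 4.37% at +2. The most frequent single tag was the one from +3, whose seed is shared in the RefSeq table with miR-12205-5p.
start +3, 22 nt: aGTGTTTCctactttatggatg
start 0, 22 nt: tGTAGTGTttcctactttatgg
start 0, 23 nt: tGTAGTGTttcctactttatgga
Their mean shares were 34.1%, 26.5% and 20.5%. The tag from +3 ends at the last base of the annotated hairpin (87756927). Reads on the miR-142 locus that run past the hairpin numbered 53 to 185 per library.

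**Figure D5:**
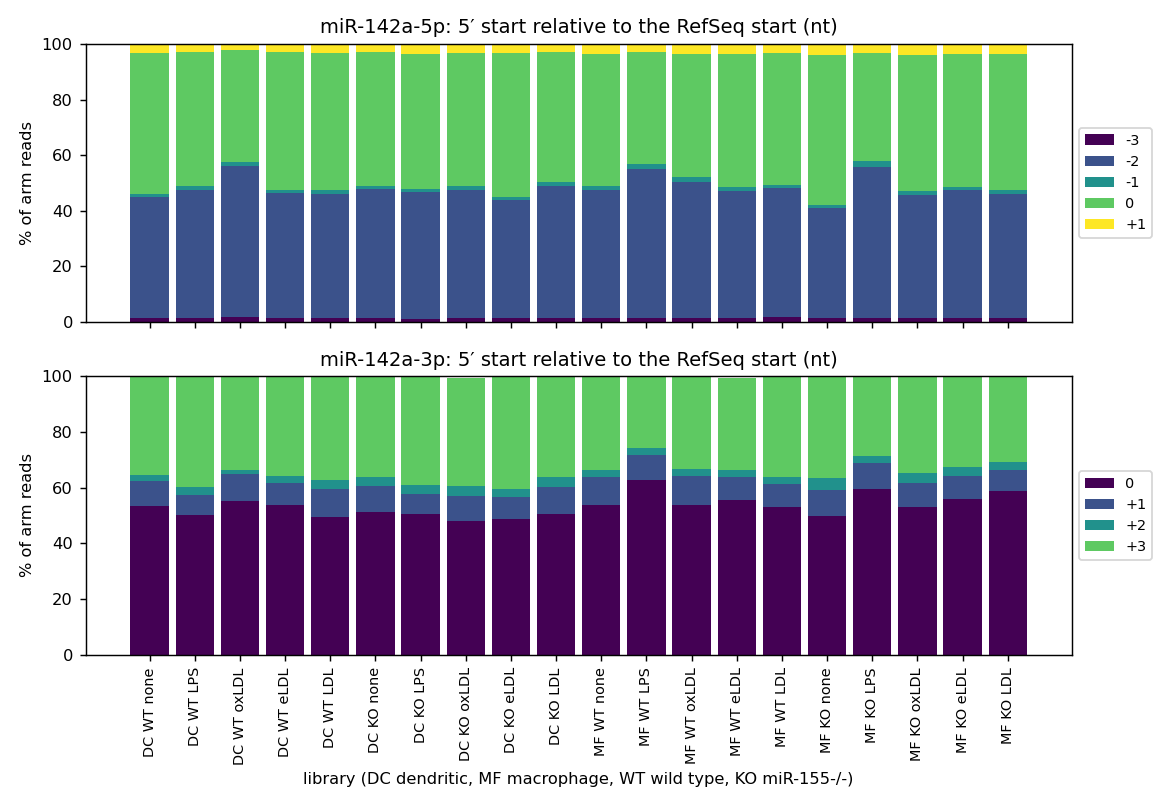
Share of the reads of miR-142a-5p (top) and miR-142a-3p (bottom) at each 5′ start (y axis, %, stacked, starts with at least 1% in a library) in the 20 libraries (x axis), with starts counted in nt from the RefSeq start. The start at -2 of miR-142a-5p holds 39.7% to 54.5% and the start at +3 of miR-142a-3p 25.6% to 40.2%.

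Among the 91 well-covered arms, a start other than the leading one held a median of 2.75% of reads. It held 52.6% on average for miR-142a-5p, a share that 2 of the 91 arms exceeded, and 46.6% for miR-142a-3p, which 4 exceeded. The mix of starts varied by stimulus. The share at -2 of miR-142a-5p was 46.1% unstimulated and 53.7% with LPS in wild-type macrophages and 39.7% and 54.5% in knockout ones. In dendritic cells it was 43.5% and 46.2% in wild type and 46.3% and 45.5% in the knockout, and the wild-type oxLDL library stood highest there at 54.2%. In the fit of single tags, the 20 nt tag from -2 rose with LPS by 0.63 ± 0.14 in dendritic cells and 0.87 ± 0.14 in macrophages on the log2 scale (edgeR, adjusted p = 0.00316 and 0.000532), and the 21 nt tag from -2 by 1.32 ± 0.17 and 1.25 ± 0.17. The 22 nt tag from -2 fell by 0.58 ± 0.16 in dendritic cells (edgeR, adjusted p = 0.0117) and had 0.14 ± 0.16 in macrophages. The 21 nt tag at the RefSeq start was not called in either (0.23 ± 0.20 and -0.18 ± 0.20).

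Exact paired permutation tests over the 10 matched pairs compared 18 isoform measures between cell types and between genotypes, 36 tests in all, adjusted together by Benjamini-Hochberg. The smallest p they can give is 0.00195. In each comparison the 10 pairs come from 2 pairs of cultures under 5 stimuli, and the tests treat them as independent. Their p-values thus measure the spread between libraries and not between cultures. Of the 36 tests 8 passed, and none of the 8 passed without the LPS libraries (exact test over 8 pairs, adjusted p from 0.0563 to 0.141). With fewer pairs the smallest p of the test is larger, so this loss cannot show whether the calls rest on the LPS libraries. Each of the 8 differences kept its sign. The start shares did not pass. The reads away from the leading start were 53.5% ± 4.33 (SD, n = 10) in macrophages and 51.8% ± 3.12 in dendritic cells for miR-142a-5p (exact test, adjusted p = 0.595), and 44.3% ± 3.74 and 48.9% ± 2.37 for miR-142a-3p (exact test, adjusted p = 0.0633). Between genotypes they differed by -1.65 and 1.52 percentage points (exact test, adjusted p = 0.401 and 0.457).

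The share of each hairpin's reads on its 5p arm was lower in macrophages in 10 of 10 pairs for both hairpins. For miR-223 it was 7.07% ± 0.689 in macrophages and 10.3% ± 2.37 in dendritic cells (SD, n = 10, exact test, adjusted p = 0.0141). For miR-142a it was 95.8% ± 0.574 and 96.9% ± 0.285 (exact test, adjusted p = 0.0141). The miR-223 value rests on the length limit: with tags of up to 30 nt the difference was -1.27 percentage points (exact test, adjusted p = 0.517). With base 20 ignored it was -3.26, against -3.25.

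Among the 4 arms, non-templated U at the 3′ end had the highest mean share on miR-223-3p. Tails of U only, 1 to 3 nt long, were on 11.4% to 16.1% of its reads, against a median of 2.93% over the 91 arms, of which 18 had more. The most frequent was a U after the 21 nt form.
U after 21 nt: tgtcagtttgtcaaataccccT
U after 22 nt: tgtcagtttgtcaaataccccaT
They made up 3.68% and 3.26% of the arm's reads, and the capital letter is the added base. With LPS the U share of miR-223-3p was higher in 4 of 4 pairs, by 0.013 to 4.26 percentage points (mean 2.19, SD 1.74). That of miR-223-5p was higher in 4 of 4, by 2.53 to 4.34. The median change over the 91 arms was 0.45, and 33 of them were higher in all 4 pairs. miR-142a-3p carried U tails on 4.14% ± 0.730 of reads in macrophages and 6.72% ± 1.33 in dendritic cells (SD, n = 10, lower in 10 of 10 pairs, exact test, adjusted p = 0.0141). For miR-142a-5p the U shares were 0.655% ± 0.0820 and 1.02% ± 0.281 (lower in 10 of 10 pairs, exact test, adjusted p = 0.0141), and the A shares 0.971% ± 0.0875 and 1.18% ± 0.104 (lower in 10 of 10, exact test, adjusted p = 0.0141). With base 20 ignored these 3 differences kept their call. A tails of miR-142a-3p were on 2.62% ± 0.202 and 3.24% ± 0.420 of reads (lower in 9 of 10 pairs, exact test, adjusted p = 0.0234), and on 2.79% ± 0.391 in the knockout against 3.06% ± 0.487 in wild type (lower in 9 of 10, exact test, adjusted p = 0.0439). Both A-tail calls on miR-142a-3p were lost with tags of 20 to 24 nt. The genotype difference, the only one called among the 18 measures, was also lost when 1 of 17 of the 20 libraries was left out.

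miR-142a-3p at the RefSeq start was shorter in macrophages, at 22.0 nt ± 0.236 against 22.4 nt ± 0.0404 (SD, n = 10, lower in 8 of 10 pairs, exact test, adjusted p = 0.0402). The call was lost when 1 of 16 of the 20 libraries was left out. A form of 19 nt moved with it, printed here with the next 3 template bases in capitals.
19 nt form: tgtagtgtttcctactttaTGG
It held 12.2% to 19.9% of reads at that start in 8 macrophage libraries, 0.990% in unstimulated knockout and 0.813% in LDL-treated wild-type macrophages, and 0.0885% to 1.47% in dendritic cells. The next template bases are the same as the first 3 bases of the 3′ adapter named in the labels' protocol. A 21 nt form of miR-223-5p ends before the same 3 bases and held 4.12% to 13.5% of reads in those 8 libraries, 1.90% and 3.29% in the other 2 and 0.614% to 5.16% in dendritic cells. The part of adapter removal in these forms was not tested. With tags of 20 to 24 nt the length difference was -0.029 nt (exact test, adjusted p = 0.390).

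Likeness to other miRNAs was measured by Pearson's r of log2(CPM + 1) over the 20 libraries, as a description, since libraries share cell type and stimulus. For miR-223-3p the arms most like it were miR-93-3p (r = 0.86), miR-301a-5p (0.85) and miR-339-3p (0.83), and for miR-223-5p they were miR-222-3p (0.90), miR-322-3p (0.87) and miR-27a-5p (0.87). The arms of miR-223 had r = 0.85 with each other. miR-142a-5p was most like miR-181c-5p, miR-425-3p and miR-141-3p (0.91 each), and miR-142a-3p most like miR-149-5p (0.95), miR-212-5p (0.94) and miR-181a-5p (0.94). With the mean of each cell type taken off, miR-700-3p (0.89), miR-152-5p (0.85) and miR-181a-1-3p (0.82) were most like miR-223-3p, and miR-222-3p (0.80), miR-700-3p (0.77) and miR-378a-3p (0.77) most like miR-223-5p. For miR-142a-5p they were then miR-1843a-5p (0.88), miR-29b-3p (0.85) and miR-181c-5p (0.84), and for miR-142a-3p miR-30e-5p (0.83), miR-33-5p (0.80) and miR-301a-3p (0.79). The arms of miR-142a had r = 0.88 with each other over all libraries and 0.66 with the cell type means taken off.

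Other miRNAs of blood cells and of myeloid differentiation are set beside all arms tested. Of 11 blood-cell-restricted arms, 9 were tested, and between cell types 4 were higher and 4 lower in macrophages (median log2 fold change -0.46). Of 18 arms tied to myeloid differentiation, 17 were tested, with 5 higher and 10 lower (median -0.99). Of all arms 39.2% were higher and 39.2% lower, with a median of -0.0070. miR-181a-5p, a regulator of T cell receptor signalling, was higher in macrophages by 1.94 ± 0.06, and miR-146a-5p, an NF-kB target that restrains inflammatory signalling, had a log2 fold change of -3.28 ± 0.09. With LPS, 1 blood-cell-restricted arm was higher and 1 lower in dendritic cells, and 1 higher and 2 lower in macrophages. Of the myeloid list 7 were higher and 2 lower in dendritic cells, and 4 higher and 3 lower in macrophages. Of all arms 12.5% were higher and 11.7% lower with LPS in dendritic cells, and 11.2% and 8.09% in macrophages. miR-146a-5p rose with LPS by 1.08 ± 0.20 in macrophages (edgeR, adjusted p = 0.000765) and had 0.48 ± 0.19 in dendritic cells (edgeR, adjusted p = 0.0852). By genotype in macrophages, 2 blood-cell-restricted arms were higher and 1 lower, and 3 of the myeloid list were higher and 6 lower, beside 11.7% and 12.0% of all arms. miR-155-5p and miR-146a-5p are on both lists, and miR-155-5p is the deleted gene.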

How the data were processed

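For each library the authors deposited the distinct tags (18 to 45 nt) and how often each was read, as whole counts. The tool named, per the submitters' processing notes, is CASAVA 1.8.2, whose role is not stated, and the adapter trimmer is not given in the sources used here. Libraries were made with a TruSeq kit from total RNA, per the labels' protocols. Tags carry no molecular identifiers, so limits on counts cover counting error only.

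Tags of 18 to 26 nt were matched exactly to 1178 GENCODE M21 hairpins (GRCm38). Arms were named from RefSeq. Tails are up to 3 unmatched bases after a templated part of at least 17 nt. Counts were scaled by TMM and fitted in edgeR 4.0.16 (R 4.3.3) with culture and stimulus within cell type (8 residual degrees of freedom), by robust quasi-likelihood tests with Benjamini-Hochberg adjustment over 383 arms at 0.05. The knockout LPS response used 4 residual degrees of freedom. Since a condition has a single library, there is no spread within conditions. The main fit takes its spread from departures of the 2 genotypes from parallel stimulus responses within each cell type. A true difference in response between the genotypes would count as spread there. SE is the log2 change over the root of F. Isoform shares were tested by exact paired sign permutation (scipy). In simulated counts for LPS in macrophages, 28 of 31 arms changed 2-fold, 26 of 26 changed 4-fold and 2 of 303 unchanged arms were called among 360 arms tested. The simulated counts had a preset spread and no effect of cell type, genotype or other stimuli. They check the fit and do not give error rates for these libraries.

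The 4 arms are named in every comparison, with every 5′ start holding at least 1% in a library, the leading tags, and the 3 arms most like each. The members and lists were chosen with earlier results of these data known. Alternatives were other scalings (RLE, upper quartile, plain totals), no filter, DESeq2 1.42.0, starts within 2 nt of the leading one, tags of 1 arm only, 20 to 24 nt and each library left out. Ignoring base 20, tags of 18 to 30 nt and single tags were added after seeing the data.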

Additional observations from a re-analysis of the deposited data

Results flagged for a closer look

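The difference in miR-223-3p between miR-155 knockout and wild type was itself tested between the cell types. Macrophages minus dendritic cells gave -0.63 ± 0.12 (log2, edgeR quasi-likelihood test, Benjamini-Hochberg adjusted p = 0.00185). The genotype difference was -0.74 ± 0.09 in macrophages, lower in 5 of 5 pairs, and -0.11 ± 0.09 in dendritic cells, lower in 4 of 5. Genotype and culture preparation cannot be told apart in these libraries. Tags of 27 to 30 nt, outside the length range of the main counts, made up a mean of 63.6% of miR-223-5p reads of 18 to 30 nt at the leading start.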

How the results depend on the processing

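For miR-223-3p, the call and direction held under each of the 30 alternatives run for LPS in both cell types, the knockout in macrophages, the genotype difference between cell types and the difference between cell types, and the difference between cell types held likewise for the other 3 arms. The values below are those that lost or gained a call or changed sign, and most of them lie near 0. Except where a value's own construction shows it, the cause was not tested. With plain totals, miR-142a-3p and miR-142a-5p had -0.44 and -0.15 for LPS in dendritic cells, miR-223-5p -0.91, and LPS in macrophages minus dendritic cells was 0.31 for miR-142a-3p, 0.45 for miR-142a-5p and 0.26 for miR-223-3p. The same scaling gave -0.063 and -0.011 for the LPS response by genotype of miR-142a-3p and miR-142a-5p, 0.12 for the genotype difference between cell types of miR-142a-5p and -0.21 for lipoproteins in macrophages of miR-223-3p. Upper-quartile scaling gave miR-142a-3p -0.050 for LPS in dendritic cells and -0.040 for the LPS response by genotype. It gave miR-142a-5p 0.015 for LPS between cell types, 0.056 for the genotype difference between them and 0.30 (called) for the knockout in macrophages, and miR-223-5p -0.62 (called) for lipoproteins in macrophages. For the LPS response by genotype, miR-142a-3p and miR-142a-5p had -0.11 and -0.061 with RLE scaling and with DESeq2, -0.18 and -0.13 with no filter, -0.22 and -0.069 with 20 to 24 nt, and -0.083 and -0.031 with 18 to 30 nt. For lipoproteins in dendritic cells, miR-142a-5p had 0.017 with RLE scaling and DESeq2, 0.044 with no filter, 0.020 with starts within 2 nt, 0.012 with tags of 1 arm only and with 20 to 24 nt, 0.027 with base 20 ignored and 0.023 with 18 to 30 nt, and miR-142a-3p had 0.018 with no filter and 0.0020 with base 20 ignored. For the knockout in macrophages, miR-142a-3p had -0.0025 with no filter, -0.0017 with starts within 2 nt, -0.089 with 20 to 24 nt and -0.010 with base 20 ignored. With starts within 2 nt, miR-142a-3p had -0.057 and 0.019 for LPS in dendritic cells and macrophages and 0.076 for their difference, and miR-223-5p -0.81 (called) for the genotype difference between cell types, as with 20 to 24 nt (-0.72, called). With 18 to 30 nt, miR-142a-3p had -0.0064 for LPS in dendritic cells, miR-142a-5p 0.034 for LPS between cell types, miR-223-5p -0.75 (call lost) for the knockout in macrophages and miR-223-3p -0.32 (call lost) for lipoproteins in macrophages. With no filter, calls were lost for miR-223-5p with LPS in macrophages (-1.09) and for the knockout there (-0.72) and for miR-223-3p with lipoproteins in macrophages (-0.29). With base 20 ignored, miR-142a-5p gained a call for LPS in dendritic cells (0.43) and miR-142a-3p for its start share between cell types (-5.14 percentage points).

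Isoform calls rest on 10 pairs, which come from 2 pairs of cultures under 5 stimuli and are treated as independent. Without the LPS libraries 8 pairs remain, which raises the smallest p that the test can give, and none of the 8 calls passed (exact test, adjusted p from 0.0563 to 0.141). The differences were then -0.22 and -0.24 percentage points for A and U tails of miR-142a-5p, -0.41 nt for the length of miR-142a-3p, -0.46 for its A tails (-0.22 by genotype), -2.44 for its U tails, and -3.10 and -1.19 for the 5p share of miR-223 and miR-142a. The start share of miR-142a-5p was then -0.11. With 20 to 24 nt, calls were lost for miR-142a-3p length (-0.029 nt) and A tails (-0.21, and -0.13 by genotype), and with 1 nt tails after at least 19 templated nt for the A tails of miR-142a-5p (-0.11) and miR-142a-3p (-0.24, and -0.096 by genotype). With 18 to 30 nt the 5p share of miR-223 lost its call (-1.27). The LPS length changes leave out the 18 and 19 nt forms under a limit of 20 to 24 nt and were then 0.10 nt for miR-223-3p, -0.18 for miR-223-5p and -0.015 for miR-142a-5p, the U tails of miR-223-3p changed by 7.74 points, SD 3.03, and with 18 to 30 nt miR-223-5p shortened by -1.53 nt.

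With each library left out in turn, values ranged as follows where a call or a sign changed. For miR-142a-3p they were -0.27 to 0.22 for LPS in dendritic cells, -0.25 to 0.23 for the LPS response by genotype, -0.34 to 0.15 for LPS between cell types, 0.12 to 0.35 for the knockout in dendritic cells, -0.074 to 0.051 in macrophages and -0.20 to 0.087 for lipoproteins in dendritic cells. Its length difference was -0.51 to -0.44 nt, its start share -5.27 to -3.70 points and its A tails by genotype -0.31 to -0.23 points. For miR-142a-5p they were -0.34 to 0.39 for the LPS response by genotype, -0.17 to 0.20 for LPS between cell types, -0.20 to 0.067 for the genotype difference between them and -0.23 to 0.17 for lipoproteins in dendritic cells. For miR-223-3p they were -0.33 to 0.16 for the LPS response by genotype and -0.43 to -0.16 for lipoproteins in macrophages. For miR-223-5p they were -1.28 to -0.72 for LPS in macrophages, -0.80 to -0.46 for the genotype difference between cell types, -0.24 to 0.031 for the knockout in dendritic cells and -0.084 to 0.41 for lipoproteins in dendritic cells. Counts over all arms moved by over 1.5 times for LPS in dendritic cells (93, 152 with plain totals, 52 to 57 without 1 of 3 dendritic cell libraries), LPS between cell types (45, 94 with plain totals, 23 without the unstimulated wild-type dendritic cells), the knockout in dendritic cells (31, 17 at the least), lipoproteins in macrophages (48, 14 without the unstimulated wild-type macrophages), lipoproteins in dendritic cells (1, and 0 to 7) and the LPS response by genotype (0, and up to 3). The labels hold no replicate numbers, so no fit with a replicate block was made, and pairs of libraries are matched by genotype and stimulus or by cell type and stimulus.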
